A study of Mus musculus with 8 samples.

Results

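The arrays taken 120, 180 and 240 min after tamoxifen (the late arrays) were compared with those taken at 20, 40 and 60 min (the first-hour arrays), which separates transcripts that stood apart briefly in the first hour from transcripts that stood apart with a delay. These are 6 of the 8 arrays of the series, assigned by the times in their titles. The 2 arrays titled untreated entered no test between the windows and served as the background level. After the filters, 9294 genes were compared, each through 1 probe set. All 8 arrays hold total RNA of mouse primary keratinocytes, the cells that build the epidermis, infected with a retrovirus that the labels call EMPTY. Tamoxifen is a ligand of the estrogen receptor and is also used to switch on proteins fused to part of that receptor. One description covers all arrays and speaks of tamoxifen even for the untreated ones, so groups follow the titles alone. No strain, age, dose or vehicle is labelled, and no array of cells kept without tamoxifen for the same times was used here, so tamoxifen, handling and time in culture cannot be told apart. Each time has 1 array, so a window pools 3 times and not 3 replicates, and every SD and SE below includes the differences between times. Separate cultures are not stated in the labels, and a p-value therefore speaks only of how far these arrays scatter, which may be technical.

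When cells meet a stimulus or a change of medium, immediate early genes such as Fos, Egr1 and Jun are transcribed within minutes from factors already present, and many of their short-lived mRNAs are gone again soon after. Delayed genes follow, often because they need the protein products of the first wave, and feedback inhibitors of signalling are found in both waves. In keratinocytes such waves accompany wounding, growth factor signalling and the passage from the basal to the differentiated layers.

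The cells carried the markers of their label, and markers of other cells, such as melanocytes and fibroblasts, were also measured, as given below. The basal keratins Krt5 and Krt14 were at the 100th percentile of the genes measured, Trp63, the transcription factor of stratified epithelia, at 80.1, and Itga6, Itgb4, Col17a1, Dsp and Cdh1 between 89.8 and 99.2. Median intensities of the 8 arrays lay between 192 and 198. The 3' minus 5' log2 difference of Actb probe sets, a sign of RNA quality, was 0.20 at 60 min and between 0.26 and 0.28 in the other arrays. Over 37 genes of G2 and M phase, the mean level, which follows the share of dividing cells, was 9.18, 9.49 and 9.38 (log2) at 20, 40 and 60 min, 8.96 and 9.05 at 120 and 180 min and 9.60 at 240 min, against 9.68 and 8.95 in the untreated arrays. In RNA from mixed cells, fewer cells of a type and less RNA per cell cannot be told apart.

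Adm, which encodes the vasodilator peptide adrenomedullin, showed the largest difference between the windows. On the log2 scale it was at 8.97, 9.16 and 9.65 at 20, 40 and 60 min and at 8.04, 8.15 and 8.32 at 120, 180 and 240 min, with 8.35 and 8.14 in the untreated arrays. The first-hour values all stood above the late and the untreated ones, which overlapped each other. The means were 9.26 ± 0.35 in the first hour and 8.17 ± 0.14 late (SD over 3 times), a difference of -1.09 ± 0.15 (SE) or 2.13-fold less. In the other direction, Npn2 had the smallest p of all genes, with 6.91, 7.15 and 7.01 in the first hour and 7.65, 7.89 and 7.69 late. The untreated arrays, at 6.97 and 6.90, lay with the first hour. The untreated and first-hour means of Npn2, 6.93 and 7.03, were below 7.04, the limit under which dim probe sets were left out. Npn2 therefore passed this brightness limit only through its late values. Its difference was 0.72 ± 0.08 (SE), but its second probe set gave -0.02, and the 2 probe sets of this gene disagree. Neither gene passed (limma, Benjamini-Hochberg adjusted p = 0.183 for Adm and 0.131 for Npn2).

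No gene passed at an adjusted p under 0.05 in limma, 0% of 9294, and 1830 genes (19.7%) had an unadjusted p under 0.05. Of these, 709 were lower late (7.63% of all genes) and 1121 higher late (12.1%). The 3 late values lay all below the 3 first-hour values in 790 genes (8.5%) and all above them in 1267 (13.6%). The larger number on the higher side depends on the scaling. With median centring 868 genes were lower and 921 higher at an unadjusted p under 0.05, and 1032 lay below and 1014 above without overlap. With quantile normalization these counts were 838 and 946, and 989 and 1053. Over all genes the median difference was 0.02, and 43.8% of genes were lower late. The differences were small: Adm alone reached 1 on the log2 scale and 54 genes reached 0.5.

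The count of passing genes rests on the 240 min array. Without it, 1687 genes passed, 732 lower and 955 higher late, and 1346 and 1747 had an unadjusted p under 0.05. With the 6 arrays and the G2 and M phase mean as a covariate, 156 genes passed, and all 156 also passed without the 240 min array. With limma's array weights, which gave that array 0.32 and the 180 min array 7.43, 3050 passed. Leaving out 40, 60, 120 or 180 min lowered the counts at an unadjusted p under 0.05, to 413 and 552 (lower and higher late), 404 and 839, 366 and 567, and 335 and 587. Which of these values is nearest to the difference between early and late times was not tested. Over all genes the 240 min array correlated at 0.9975 with the first untreated array and at 0.9921 with the second. The 120 min array was at 0.9924 and 0.9972, the 180 min array at 0.9952 and 0.9974, and the untreated arrays at 0.9942 with each other. The late arrays kept without 240 min thus lay nearer to the second untreated array, and all first-hour arrays nearer to the first.

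**Figure D1:**
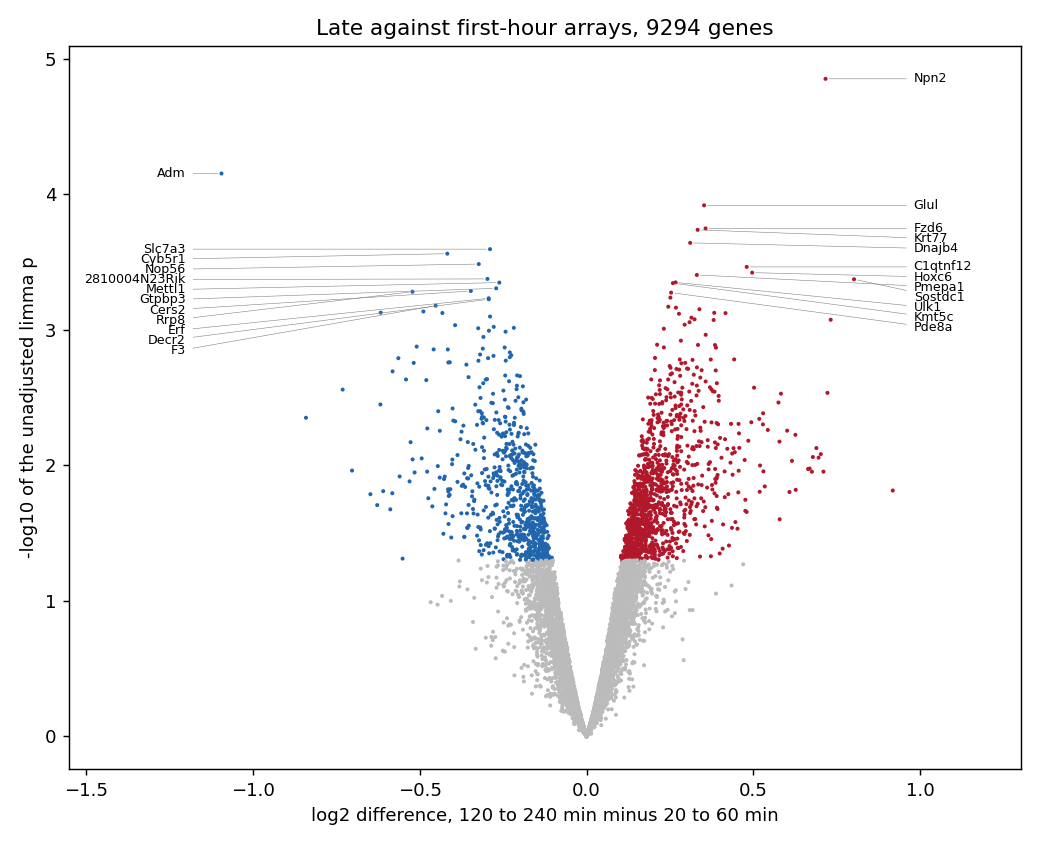
Log2 difference between late and first-hour arrays (x axis) against -log10 of the unadjusted limma p (y axis) for 9294 genes, with the 12 smallest p in each direction named. Blue and red points have an unadjusted p under 0.05, Adm, at -1.09, has the largest difference, and Npn2, at 0.72, the smallest p.

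The 12 genes with the smallest p on the lower side differed by -0.26 to -1.09, and in each the windows did not overlap. Slc7a3, a transporter of cationic amino acids, was nearly flat within each window, at 9.21, 9.23 and 9.22 in the first hour and 8.87, 8.97 and 8.95 late, a difference of -0.29 ± 0.05 (SE). The untreated values, 8.95 and 8.98, lay with the late ones. Nop56, a core protein of the nucleolar particles that methylate ribosomal RNA, differed by -0.32 ± 0.06. Mettl1, a tRNA methyltransferase, differed by -0.26 ± 0.05, Gtpbp3, a GTPase that modifies mitochondrial tRNA, by -0.27 ± 0.05, and Rrp8, a nucleolar ribosomal RNA methyltransferase, by -0.52 ± 0.10. Cers2, a ceramide synthase, was at -0.35 ± 0.06, F3, the tissue factor that starts coagulation, at -0.45 ± 0.09 and the reductase gene Cyb5r1 at -0.42 ± 0.07. Erf, a transcriptional repressor inactivated by ERK, and Decr2, a peroxisomal reductase of fatty acid breakdown, were both at -0.29 ± 0.06, although a further probe set of Erf gave -0.07. The remaining gene, 2810004N23Rik, was at -0.30 ± 0.05. Adjusted p was 0.183 for each of the 12 in limma, and each passed without the 240 min array and with the G2 and M phase covariate. They also passed with array weights, but no gene passed when any other single array was left out. The 12 were picked by p in the same arrays, so these passes are no separate support.

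On the higher side the 12 genes differed by 0.25 to 0.80. Glul, glutamine synthetase, was at 8.32, 8.32 and 8.34 in the first hour and at 8.71, 8.74 and 8.59 late, 0.35 ± 0.05 (SE), with 8.43 and 8.61 untreated. Fzd6, a Wnt receptor, was at 10.14, 9.98 and 10.00 and then at 10.35, 10.41 and 10.42, 0.36 ± 0.06, and a further probe set gave 0.17. Both genes were separated between the windows, and only Fzd6 was also above both untreated values, 10.27 and 10.30, at all late times. Sostdc1, a secreted antagonist of BMP and Wnt ligands, was at 9.18, 8.91 and 8.70 and then at 9.98, 9.77 and 9.46, 0.80 ± 0.14. It was lowest at 60 min and highest at 120 min. The epidermal keratin Krt77 was at 0.33 ± 0.05, the cochaperone Dnajb4 at 0.31 ± 0.05, the secreted protein gene C1qtnf12 at 0.48 ± 0.08 and the homeobox gene Hoxc6 at 0.50 ± 0.09. Ulk1, the kinase that starts autophagy, was at 0.27 ± 0.05, the histone methyltransferase gene Kmt5c at 0.26 ± 0.05 and Pde8a, a phosphodiesterase of cyclic AMP, at 0.25 ± 0.05. Adjusted p was 0.183 for 11 of them in limma, and like the lower genes all 12 passed without the 240 min array and with the G2 and M phase covariate. Again none passed when any other single array was left out, and these genes too were picked by p in the same arrays.

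Genes were next divided by where the untreated arrays lay. A gene was called first-hour high, or low, when its 3 first-hour values lay above, or below, all late and untreated values. It was called late high or late low when the 3 late values lay beyond all others. These classes are built from the values and carry no test. The share of genes that arrays in no order would place in each class was not determined. There were 509 first-hour high genes (5.48% of all), 771 first-hour low (8.3%), 231 late high (2.49%) and 157 late low (1.69%). Of the late high genes, 55 were also first-hour low, and of the late low genes, 34 were also first-hour high, with the untreated arrays between the windows. Genes at the margin are barely separated: the gap to the nearest other array was 6.92e-05 for Dcaf12, just inside the first-hour high class, and -2.63e-05 for Nr2f2, just outside. A gap of at least 0.1 was found in 42, 70, 2 and 2 genes of the 4 classes. The first-hour classes were larger than the late classes and held more wide gaps. Without the 240 min array, however, the classes held 1043, 1306, 1191 and 602 genes, and the late high class exceeded the first-hour high class. Without the 20 min array the classes held 1103, 1513, 270 and 203 genes. In part this follows from the rule: with an array of a window left out, fewer arrays of that window must stand apart, which by itself enlarges its own classes most. The order of the first-hour classes also turned with the scaling: median centring gave 722 high and 547 low genes, and quantile normalization 656 and 615.

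In the first-hour high class the median gene was 0.16 above untreated in the first hour and -0.00126 from untreated late. The first-hour value farthest from the late arrays was that of 60 min in 67.2% of the class (342 genes), against 43.8% of all genes. Late in the course, the 240 min value was the nearest to the first hour in 68.2% of them, against 55.4% of all genes. Other probe sets of the same genes gave the same sign in 324 of 378 cases (85.7%), and in 76.2% over all genes, on the same RNA.

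After Adm and Slc7a3, the widest gaps belonged to Bcat1, Ddit3, Rnd3 and Stbd1. Bcat1, the cytosolic aminotransferase of branched-chain amino acids, was at 8.85, 8.98 and 9.02 in the first hour and at 8.07, 8.31 and 8.62 late, with 8.59 and 8.19 untreated. Its 240 min value was thus the closest to the first hour, and a further probe set gave -0.22 where this one gave -0.62 ± 0.12 (SE). Ddit3, which encodes the stress transcription factor CHOP, lay between 8.96 and 9.32 in the first hour and was then at 8.43, 8.56 and 8.75, with 8.66 and 8.48 untreated. Rnd3, whose product loosens actin fibres, differed by -0.29 ± 0.06, and its further probe set by -0.26. Stbd1, a glycogen-binding protein, differed by -0.43 ± 0.08. Mdp1, a phosphatase gene, had the largest lower difference after Adm, -0.84 ± 0.22, but its other probe sets gave -0.43 and -0.00465.

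The first-hour low class showed the mirror image in level, with a median of -0.14 from untreated in the first hour and 0.02 late. Its lowest first-hour value fell at 40 min in 345 of 771 genes. Of all 9294 genes, 3563 had the first-hour value farthest from the late arrays at that time. At 60 min the lowest value fell in 327 genes of the class (42.4%), near the 43.8% of all genes and unlike the first-hour high class. Tnfrsf18, a TNF receptor family member, was at 8.77, 8.72 and 8.44 in the first hour, at 9.71, 9.33 and 9.10 late and at 9.40 and 9.36 untreated. Lce1a1, a late cornified envelope gene of the outer epidermis, was at 8.80, 8.89 and 8.75 and then at 10.06, 9.19 and 9.18, with 9.43 and 9.61 untreated. In both genes the 120 min array was far above the other late arrays, and for Lce1a1 the 180 and 240 min values lay between the first hour and untreated. The gene 2310050C09Rik had the same order, with 8.62 at 120 min and 7.93 and 7.80 at 180 and 240 min, 0.62 ± 0.18 (SE). Hoxc6, C1qtnf12 and Dnajb4 completed the widest gaps of the class.

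In the late high class the median late difference from untreated was 0.10. Other probe sets of its genes gave the same sign between the windows in 96 of 121 cases (79.3%), near the 76.2% over all genes. Their median difference was 0.05, against 0.12 at the probe sets used. Npn2, which passed the brightness limit only through its late values, had a gap of 0.50. Pmepa1, a TGF-beta target that dampens TGF-beta signalling, was at 9.20, 9.25 and 9.20 in the first hour, 9.66, 9.52 and 9.47 late and 9.29 and 9.33 untreated. Its 2 further probe sets differed by 0.17 and 0.24, in the same direction as its 0.33 ± 0.06 (SE). Skil, a repressor of SMAD proteins that TGF-beta induces, was at 0.13 ± 0.05, and Tbc1d23, a protein of vesicle tethering, at 0.14 ± 0.05. Pde8a and 1700023D09Rik were the other members with the widest gaps, at 0.25 and 0.19.

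In the late low class the median late difference from untreated was -0.10, and the gaps reached 0.12. Erf was at 9.03 at 40 min and 9.11 at 60 min, slightly lower at 20 min, then at 8.70, 8.74 and 8.83, with 8.97 and 8.95 untreated, and so was high in the first hour and low late. Mocos, which activates molybdenum enzymes, was at 8.32, 8.44 and 8.21 and then at 8.13, 8.10 and 8.11, with 8.40 and 8.41 untreated. The late values of Mocos lay closer together than its first-hour values. Tnfaip2, a TNF-induced gene, differed by -0.24 ± 0.06, with -0.05 at its further probe set, and Ambp, which encodes a plasma protein precursor, by -0.11 ± 0.04. Tsr1, which takes part in maturation of the small ribosomal subunit, differed by -0.29 ± 0.07.

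**Figure D2:**
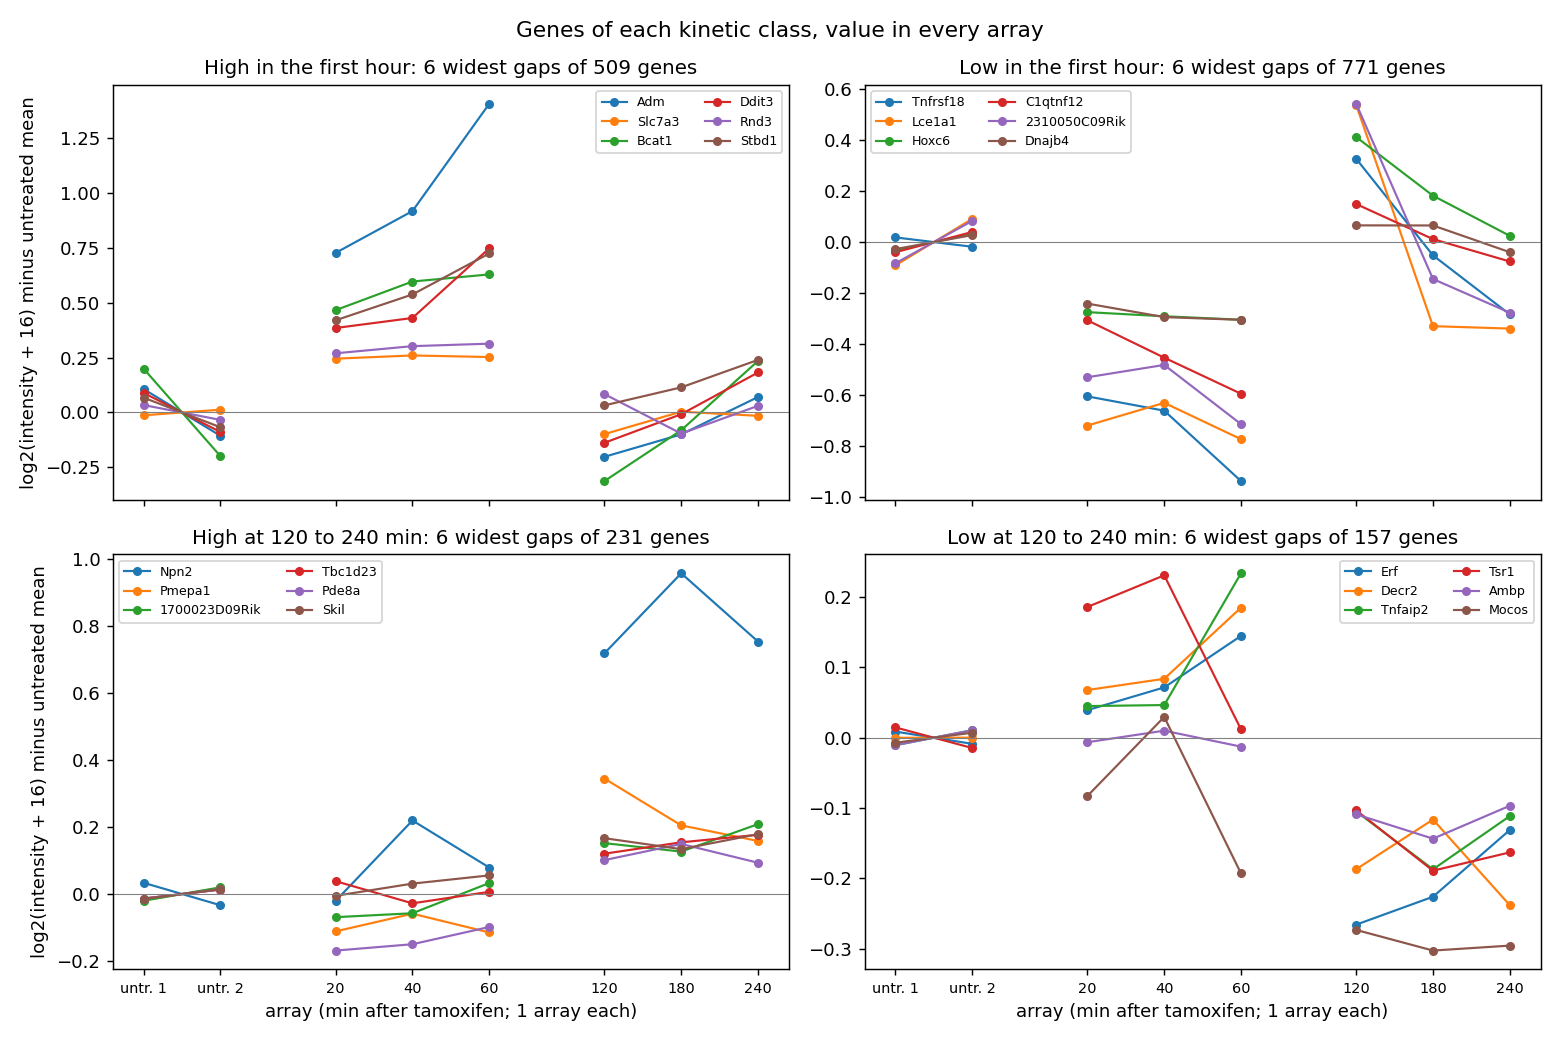
Log2 values relative to the mean of the 2 untreated arrays (y axis) in every array (x axis, in order of time) for the 6 genes with the widest gap in each of the 4 classes; each point is 1 array, and the y scales differ between panels. Adm reached its highest value at 60 min and was near the untreated level at 120 min, Npn2 lay higher at all 3 late times, and in the first-hour low panel the 120 min array was the highest.

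Gene lists were read by their counts and medians beside the shares of all genes given above, and no test was made over a list. Of 26 genes of the ATF4 and CHOP response to amino acid shortage, 23 were lower late and 3 higher, with a median of -0.16. An unadjusted p under 0.05 was found for 14 lower genes (53.8%, against 7.63% of all) and 1 higher, and none passed. The 12 members in the first-hour high class included Slc7a3, Ddit3, Trib3 and Chac1. Trib3, a pseudokinase that CHOP and ATF4 induce, was at 10.07, 10.39 and 10.53 in the first hour and at 9.31, 9.47 and 10.01 late, with 9.78 and 9.24 untreated. Its difference was -0.73 ± 0.18 (SE) and its further probe set gave -0.62. Chac1, which degrades glutathione, was at 9.67, 9.85 and 10.18 and then at 9.52, 9.26 and 9.64, with 9.46 and 9.04 untreated, -0.42 ± 0.13. Both were highest at 60 min, and their 240 min values lay closest to the first hour. Ddit4, an inhibitor of mTORC1 that ATF4 also induces, ran the other way and was late high, with 11.15 at 120 min, 0.33 ± 0.08. The count of 14 was 9 without the 180 min array and 17 without 240 min.

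Windows of 250 bases before to 50 bases after the start site, from RefSeq (build GRCm38.p6), were searched on both strands for the letters TGATGNAA, a core of the site that ATF4 and CHOP bind. They were found in 24.1% of 29 windows of this list, in 2.16% of the windows of all measured genes and in 3.97% of all 32851 windows. In the first-hour high class the share was 3.05% and in the first-hour low class 2.75%. The list was made of genes of the ATF4 and CHOP response, so a high share follows in part from how it was chosen. It is no separate support for the differences between the windows. The windows of Trib3 (chr2:152344011-152344310, minus strand) and Chac1 (chr2:119350992-119351291, plus strand) are shown for the steepest first-hour members that hold the motif, in capitals, 14 bases after and 193 bases before the start site. Both matches lie on the opposite strand.
Trib3: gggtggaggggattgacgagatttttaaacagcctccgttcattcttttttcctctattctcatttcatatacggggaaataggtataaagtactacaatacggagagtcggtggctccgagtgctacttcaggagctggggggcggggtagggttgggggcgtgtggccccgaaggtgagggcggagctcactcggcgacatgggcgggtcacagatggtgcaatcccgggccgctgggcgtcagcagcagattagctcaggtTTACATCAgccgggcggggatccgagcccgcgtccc
Chac1: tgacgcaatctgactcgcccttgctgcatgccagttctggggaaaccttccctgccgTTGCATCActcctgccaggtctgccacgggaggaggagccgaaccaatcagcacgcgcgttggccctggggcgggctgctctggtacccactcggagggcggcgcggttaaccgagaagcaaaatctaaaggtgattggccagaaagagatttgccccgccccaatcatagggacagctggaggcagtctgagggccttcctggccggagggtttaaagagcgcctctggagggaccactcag
A match is a description of these letters and not of binding.

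Aminoacyl tRNA synthetases, which charge tRNAs with amino acids, had 16 of 17 genes lower late, with a median of -0.14. The unadjusted p was under 0.05 for 10 lower genes (58.8%) and no higher gene, and none passed in limma. Nars, for asparagine, was at 12.04, 12.07 and 12.15 in the first hour and 11.78, 11.85 and 11.90 late, with 11.90 and 11.80 untreated, a difference of -0.24 ± 0.05 (SE). Gars, for glycine, differed by -0.19 ± 0.06, Farsb, a subunit for phenylalanine, by -0.16 ± 0.05 and Eprs, for glutamate and proline, by -0.14 ± 0.05. The 240 min value was the late value nearest to the first hour in 94.1% of the list. The 10 genes were 3 without the 120 or the 180 min array, 4 without 60 min and 12 without 240 min. The same motif occurred in 5 of the 10 windows matched for this list, among them that of Gars (chr6:55037751-55038050, plus strand), where the capitals start 30 bases before the start site on the opposite strand.
Gars: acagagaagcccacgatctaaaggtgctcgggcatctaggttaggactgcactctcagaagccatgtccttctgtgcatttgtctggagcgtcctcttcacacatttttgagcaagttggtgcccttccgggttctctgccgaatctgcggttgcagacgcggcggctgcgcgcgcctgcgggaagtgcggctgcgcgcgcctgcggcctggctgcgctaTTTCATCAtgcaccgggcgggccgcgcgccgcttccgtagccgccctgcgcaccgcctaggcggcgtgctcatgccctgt

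Ribosome biogenesis genes, whose products process ribosomal RNA in the nucleolus, were lower late in 38 of 39 cases, with a median of -0.11. The windows did not overlap in 22 genes (56.4%, against 8.5% of all), and 16 had an unadjusted p under 0.05 (41%, against 7.63% of all). Nop56 was at 11.49, 11.61 and 11.62 in the first hour and 11.21, 11.23 and 11.31 late, with 11.43 and 11.26 untreated, and its further probe set also gave -0.32. Nop58, its partner in the same particles, was at 11.07, 11.15 and 11.21 and then at 10.88, 10.93 and 10.89, -0.25 ± 0.05 (SE). Gnl3, the nucleolar GTPase nucleostemin, was at 11.15, 11.20 and 11.25 and then at 10.98, 11.04 and 10.96, with 11.10 and 11.08 untreated, -0.21 ± 0.05, and so also belonged to the late low class. Tsr1 was at 10.03, 10.08 and 9.86 and then at 9.74, 9.66 and 9.68, with 9.86 and 9.83 untreated. For these 4 genes the late values lay close together. The list mean was 10.38, 10.43 and 10.46 in the first hour and 10.29, 10.29 and 10.28 late, so the 240 min array did not lie back toward the first hour, and it was the nearest late array in 38.5% of the genes. The count of 16 lay between 12 and 20 when 1 array was left out.

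The E-box letters CACGTG, which MYC and related factors bind, occurred in 18.9% of the 37 windows of this list, in 14.3% of those of the first-hour high class, in 9.95% of those of all measured genes and in 7.15% of all windows. The windows of Tsr1 (chr11:74897830-74898129, plus strand) and Mettl1 (chr10:127041682-127041981, plus strand) are shown as an example from the list and from the genes with the smallest p, with the letters in capitals 24 and 30 bases after the start site.
Tsr1: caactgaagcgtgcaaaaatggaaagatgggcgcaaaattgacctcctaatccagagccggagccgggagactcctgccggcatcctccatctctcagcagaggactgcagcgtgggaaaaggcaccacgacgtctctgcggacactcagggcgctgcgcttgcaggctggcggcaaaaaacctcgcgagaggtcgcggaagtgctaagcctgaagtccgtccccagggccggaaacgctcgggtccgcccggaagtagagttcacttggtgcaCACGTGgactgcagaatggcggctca
Mettl1: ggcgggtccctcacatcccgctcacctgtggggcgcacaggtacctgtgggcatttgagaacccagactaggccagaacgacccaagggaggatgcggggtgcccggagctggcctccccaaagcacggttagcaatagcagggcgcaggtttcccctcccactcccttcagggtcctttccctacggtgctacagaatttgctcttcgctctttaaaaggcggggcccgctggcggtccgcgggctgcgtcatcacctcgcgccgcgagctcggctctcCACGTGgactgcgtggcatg
Myc was late low, at 10.48, 10.31 and 10.37 and then at 10.19, 10.21 and 10.25, with 10.30 and 10.44 untreated. Its difference was -0.17 ± 0.06 (SE), and its first-hour mean lay 0.02 above the untreated mean. A link between Myc, the E-box letters and the levels of these genes was not tested.

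Splicing factor genes were lower late in 24 of 26 cases, with a median of -0.14 and 8 genes at an unadjusted p under 0.05 (30.8%). Tra2b, an activator of exon inclusion, was at -0.24 ± 0.06 (SE), Hnrnpd at -0.36 ± 0.10, Rbm39 at -0.31 ± 0.09 and Srsf2 at -0.28 ± 0.09. Hnrnpd was at 11.27, 11.48 and 11.42 in the first hour and at 10.90, 10.93 and 11.27 late, with 11.34 and 11.02 untreated. Its 240 min value thus equalled the lowest first-hour value to 2 decimals. One of 3 further probe sets of Srsf2 gave 0.01, and the other two gave -0.22 and -0.26. The list mean was 10.74, 10.80 and 10.79 in the first hour and 10.57, 10.61 and 10.74 late. In the untreated arrays it was 10.77 and 10.62, so these lay apart from each other, with the first within the first-hour range. The count of 8 was 17 without the 240 min array and 5 without the 120 or the 180 min array.

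The calls on cell cycle genes depended on the 240 min array. Of 33 S phase genes 28 were lower late, with 5 at an unadjusted p under 0.05 (15.2%, against 7.63% of all). Of the 37 in G2 and M phase, 32 lay lower, with 1 at such a p (2.7%). Without the 240 min array these counts were 24 and 32, the S phase count was 9 without the 20 min array and 0 or 1 without another, and with the S phase mean as a covariate the G2 and M phase median turned from -0.15 to 0.11. Ccna2, the cyclin of S and G2 phase, was at 9.71, 10.24 and 10.18 and then at 9.19, 9.31 and 10.23, with 10.28 and 9.18 untreated, -0.47 ± 0.26 (SE). Its windows overlapped, as did those of Cdt1, a licensing factor of replication, at -0.36 ± 0.13, and Ung, a uracil glycosylase of DNA repair, at -0.28 ± 0.09. The letters TTTGAA of the cell cycle homology region occurred in 77.1% of the 35 windows of the G2 and M phase list. They occurred in 11.7% of the windows of all measured genes and in 17.9% of all windows. In the 4 classes the share was 10.3% to 13.2%, near that of the measured genes.

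The array means of the lists differed in how 240 min stood to 120 and 180 min. The 240 min mean was higher than that of 120 and 180 min by 0.59 in the G2 and M phase list, 0.34 in the S phase list, 0.17 for ATF4 and CHOP, 0.16 for splicing and 0.11 for tRNA synthetases. For ribosome biogenesis the same difference was -0.00920, and for fibroblast markers it was -0.12. Whether the cell cycle level has a part in the other lists' values at 240 min was not tested.

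**Figure D3:**
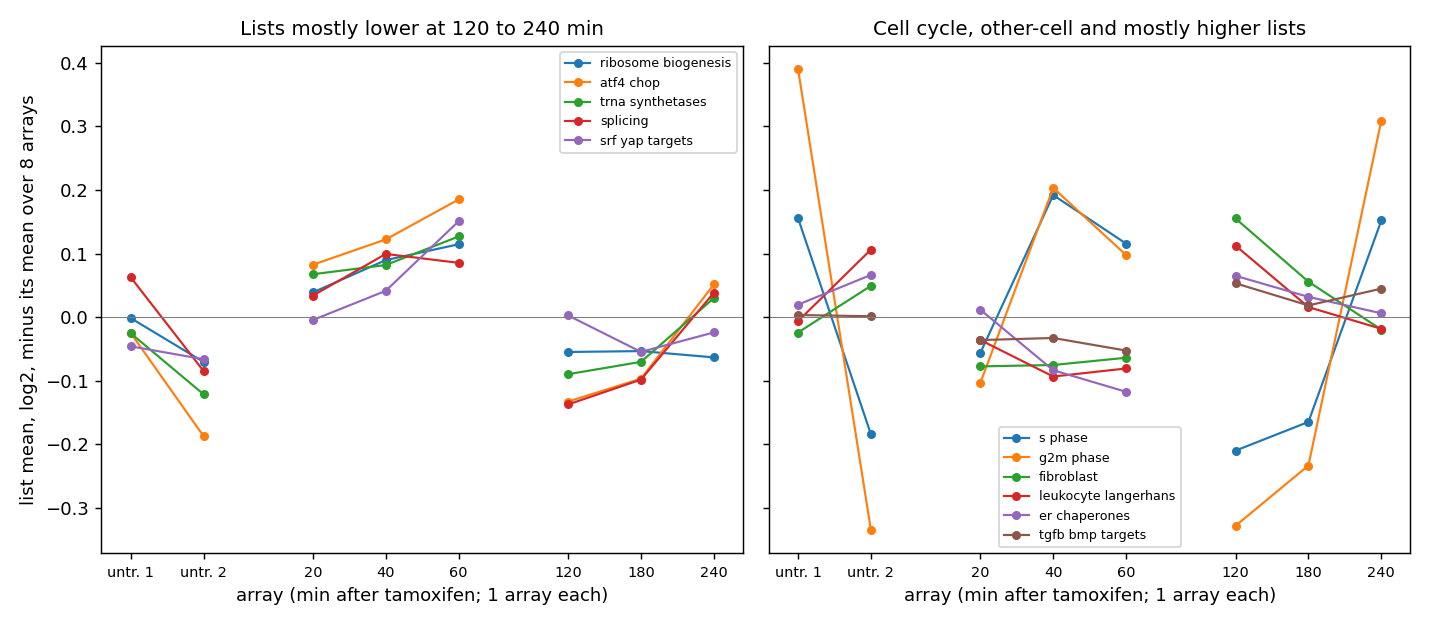
Mean log2 value of each gene list in each array, minus the list's mean over the 8 arrays (y axis), in order of time (x axis); each point is 1 array. The G2 and M phase mean ranged from 8.95 to 9.68 and lay apart from the other late arrays at 240 min, whereas ribosome biogenesis lay at 10.28 to 10.29 in the late arrays.

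Immediate early genes lay on both sides of 0. Of 32 measured, 16 were lower and 16 higher late, with a median of -0.00275. An unadjusted p under 0.05 was found for 7 lower genes (21.9%, against 7.63% of all). It was found for 4 higher genes (12.5%), near the 12.1% of all. Fos was at 7.78, 7.65 and 7.75 in the first hour and 7.52, 7.61 and 7.83 late, with 7.70 and 7.54 untreated, and Egr1 at 9.93, 9.31 and 9.41 and then at 9.07, 9.61 and 10.01, with 9.60 and 9.56 untreated. Both overlapped between the windows, at -0.08 ± 0.08 and 0.01 ± 0.23 (SE), and Egr1 had its lowest value at 120 and its highest at 240 min. Jun, a partner of Fos, was separated, at 9.88, 10.01 and 9.97 and then at 9.59, 9.52 and 9.81, with 9.64 and 9.48 untreated, -0.32 ± 0.08. Egr2 and Klf6, transcription factors of the same wave, were at -0.28 ± 0.06 and -0.31 ± 0.07. Ier3, a survival gene, and Btg2, an inhibitor of proliferation, were higher late by 0.34 ± 0.08 and 0.28 ± 0.07 and belonged to the first-hour low class. Dusp1, which dephosphorylates MAP kinases, was at -0.07 ± 0.05.

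Feedback regulators of ERK were lower late in 8 of 11 cases, with a median of -0.10. An unadjusted p under 0.05 was found for 2 lower genes (18.2%, against 7.63% of all) and 1 higher gene (9.09%, against 12.1%). The lower count was 1 to 4 when 1 array was left out. Dusp10, a phosphatase of stress kinases, was at 8.51, 8.49 and 8.78 and then at 8.26, 8.17 and 8.17, with 8.13 and 8.32 untreated, -0.39 ± 0.08 (SE). Errfi1, an inhibitor of the EGF receptor, was at -0.18 ± 0.07, and Dusp14 ran the other way at 0.31 ± 0.10. Of the 8 EGF receptor ligands and receptors measured, 3 were lower and 5 higher, and none had an unadjusted p under 0.05.

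Among secreted vasoactive and growth factors, 8 of 10 were lower late, but the median was only -0.04. An unadjusted p under 0.05 was found for 3 lower genes (30%, against 7.63% of all) and 1 higher gene (10%, against 12.1%). Edn1, which encodes the vasoconstrictor endothelin-1, was at 7.98, 8.22 and 8.53 and then at 7.53, 7.63 and 7.84, with 7.73 and 7.50 untreated, -0.58 ± 0.13 (SE). Like Adm it was highest at 60 min, and the late values overlapped the untreated ones. Targets of SRF and YAP, which answer to actin and cell tension, were lower in 18 of 25 cases with a median of -0.08. Ccn2, a matrix protein and standard YAP target, was at 9.27, 9.45 and 9.90 and then at 9.22, 9.07 and 9.02, with 8.85 and 8.90 untreated, -0.44 ± 0.14. Its late values still lay above both untreated ones. Zyx, a focal adhesion protein, was at 10.14, 10.31 and 10.50 and then at 9.80, 9.77 and 10.18, so that 240 min overlapped the first hour, -0.40 ± 0.12. Ccn1, a relative of Ccn2, had 9.61 at 120 min, its highest value, and differed by -0.15 ± 0.13. Of the list, 5 lower genes (20%, against 7.63% of all) and 2 higher genes (8%, against 12.1%) had an unadjusted p under 0.05. These counts were 9 and 4 without 240 min, and 3 lower without 40 or 180 min.

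In the lists of TGF-beta and BMP targets, endoplasmic reticulum chaperones and p53 targets most genes were higher late. TGF-beta and BMP targets were higher in 15 of 18 cases, median 0.06, with 5 at an unadjusted p under 0.05 (27.8%, against 12.1% of all). Besides Pmepa1 and Skil, Id1, an inhibitor of differentiation factors that BMP induces, was at 10.81, 10.74 and 10.79 in the first hour and 11.01, 11.02 and 11.07 late, with 11.02 and 11.02 untreated, 0.25 ± 0.05 (SE). Id1 was thus low in the first hour and at the untreated level later, and its relative Id4 was at 0.20 ± 0.06. Chaperones of the endoplasmic reticulum were higher in 17 of 20 cases, median 0.10, with 5 at an unadjusted p under 0.05 (10 without 20 min, 3 without 60 min). Pdia3 and Calr, a disulfide isomerase and a lectin that fold glycoproteins, were at 0.22 ± 0.06 and 0.22 ± 0.07, and Creld2 at 0.18 ± 0.05. Of 21 p53 targets, 14 were higher and 8 of these had an unadjusted p under 0.05 (38.1%), a count of 2 without the 40 or the 120 min array and 3 without 60 or 180 min. Cdkn1a, the cell cycle inhibitor p21, was at 0.19 ± 0.06 and Trp53inp1 at 0.27 ± 0.08, whereas Gadd45a, a growth arrest gene, was first-hour high at -0.32 ± 0.08.

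Of 14 basal keratinocyte genes 10 were higher late, with a median of 0.06 and 4 at an unadjusted p under 0.05 (28.6%, against 12.1% of all), a count of 2 without the 40, 60 or 120 min array. Of 19 differentiation genes 13 were higher late, with a median of 0.09, among them Lor, the main cornified envelope protein, at 11.01, 11.11 and 10.91 and then 11.85, 11.31 and 11.35, with 11.40 and 11.58 untreated, 0.49 ± 0.13 (SE). Ivl, which encodes the envelope protein involucrin, went the other way, at 9.03, 9.14 and 9.08 and then at 8.67, 8.59 and 8.91, with 8.92 and 8.97 untreated, -0.36 ± 0.08. Lama3, a chain of the basement membrane laminin, was at 0.34 ± 0.07 and late high. Krt5 and Krt14 differed by -0.03 ± 0.05 and -0.00900 ± 0.04. Of 21 junction genes 16 were lower late, with a median of -0.07. An unadjusted p under 0.05 was found for 2 lower genes (9.52%, against 7.63% of all) and 1 higher gene (4.76%, against 12.1%). These counts were 6 and 1 without the 240 min array. Cldn7, a tight junction protein, was first-hour high at -0.54 ± 0.13 and the gap junction gene Gja1 first-hour low at 0.23 ± 0.07.

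Markers of other cells differed between the windows as well. Of 18 fibroblast markers 15 were measured, while Dcn and Lum were below the brightness limit and Fbn1 had no single-symbol probe set. Of the 15, 14 were higher late, with a median of 0.13 and 7 at an unadjusted p under 0.05 (46.7%, against 12.1% of all). The summed intensity of the 15 was 7047 to 7180 in the first-hour arrays, 7233 to 8332 in the late arrays and 7230 to 7560 in the untreated ones. Fn1, the matrix protein fibronectin, was at 0.36 ± 0.08 (SE), Col5a2 at 0.28 ± 0.08 and Col1a2 at 0.18 ± 0.06. Of 16 leukocyte and Langerhans cell markers 9 were measured, 8 of them higher late, with summed intensities of 1562 to 1636, 1659 to 1851 and 1676 to 1826. Ptprc, Cd74, Cd207, Itgam, Lyz2, Cd3g and Cd52 were below the brightness limit. H2-Ab1, an MHC class II chain of antigen-presenting cells, was at 7.67, 7.63 and 7.56 and then at 8.31, 8.02 and 7.75, with 7.86 and 8.08 untreated, 0.40 ± 0.12. Of 12 adipocyte and muscle markers 7 were measured, 5 of them higher late, with a median of 0.03. Adipoq, Pparg and Tnnt3 were below the brightness limit, and Plin1 and Cfd had no single-symbol probe set. Fabp4, a fatty acid binding protein of adipocytes, was at 9.50, 9.28 and 9.01 and then at 10.95, 10.07 and 9.51, with 9.79 and 10.63 untreated, 0.92 ± 0.30, which was 0.53 without the 120 min array. The lipoprotein lipase gene Lpl, of the same list, lay the other way, at 7.65, 7.86 and 7.85 and then at 7.42, 7.41 and 7.56, with 7.65 and 7.57 untreated, -0.32 ± 0.07, and its further probe set gave -0.10. The interferon-induced membrane protein gene Ifitm3 was at 11.09, 10.79 and 10.52 and then at 11.91, 11.44 and 11.09, 0.68 ± 0.20. H2-Ab1, Fabp4 and Ifitm3 were all highest at 120 min. Of the defining markers of melanocytes and endothelium, 7 of 9 and 2 of 9 were measured, with medians of 0.03 and 0.00668. The 7 melanocyte markers summed to 8939 to 9788 in the first-hour arrays, 9322 to 10139 late and 9245 to 9638 untreated. These sums were larger than those of the 15 fibroblast markers. The part of other cells in the late minus first-hour differences was not tested.

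**Figure D4:**
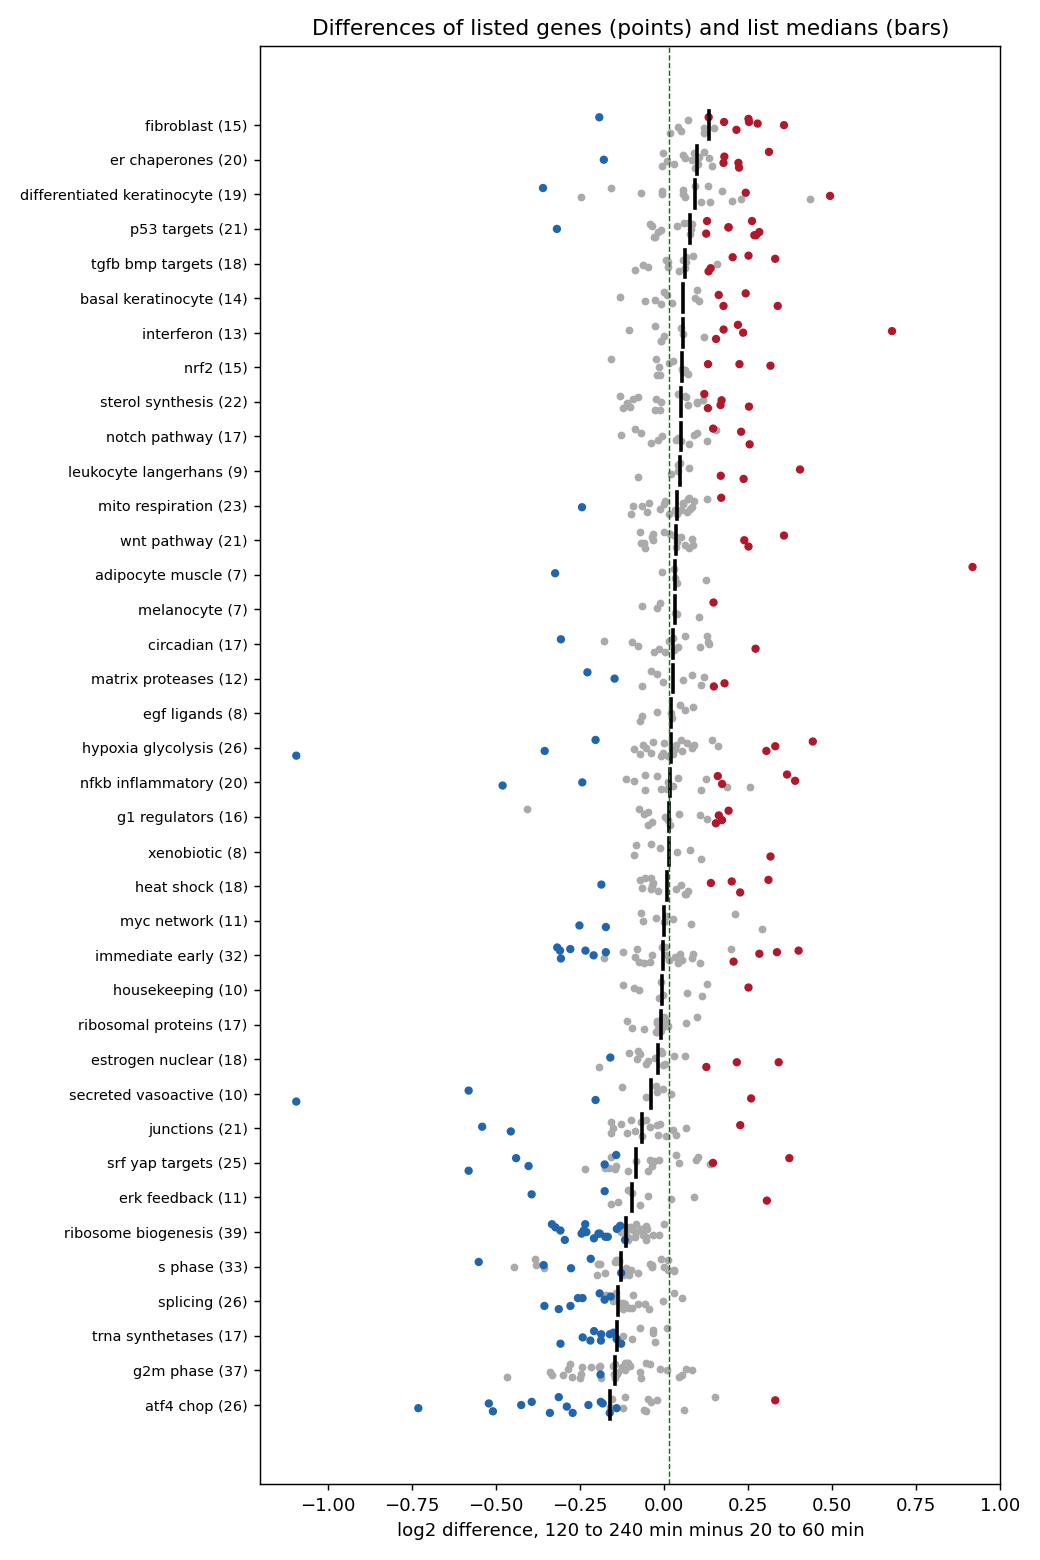
Log2 difference between late and first-hour arrays (x axis) for each measured gene of the lists with at least 7 genes (points), with the number measured in brackets and the list median as a black bar; blue and red points have an unadjusted p under 0.05. The dashed line is the median of all genes, 0.02, and the medians run from -0.16 for ATF4 and CHOP genes to 0.13 for fibroblast markers.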

How the data were processed

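Total RNA was labelled as biotinylated cRNA and hybridised to Affymetrix chips according to the labels. The deposited values are linear intensities of 22690 probe sets, and how the authors summarised and scaled them is not stated in the sources used here. Of the probe sets, 64 were controls, 20380 had 1 gene symbol in the platform annotation, 691 had several and 1555 are unnamed here. Values were used as log2(intensity + 16), with no further scaling. That scale understates the change of dim genes. The dimmest 30% of probe sets (mean below 7.04) were left out, and the brightest probe set with a single symbol stood for its gene. Of 9294 genes, 9284 matched RefSeq GRCm38.p6 by Entrez identifier, with 0 symbols differing.

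The windows were compared in R 4.3.3 with limma 3.58.1 (lmFit, eBayes) on the 6 tamoxifen arrays, with 4 residual degrees of freedom, and a gene passed at a Benjamini-Hochberg adjusted p under 0.05. The script was tested on simulated data. The number of arrays limits the precision.

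The windows, the 39 gene lists and the genes to be named were chosen with earlier results of these data known. Named are the 12 smallest p and the 6 largest non-overlapping differences per direction, the 6 widest gaps per class, up to 4 genes per list described by smallest p, and a fixed set of 27 response and keratinocyte genes. Alternatives were pseudocounts of 1 and 64, no brightness filter or one at 50%, quantile normalization, median centring, all 8 arrays, array weights, an intensity trend, the mean of all probe sets, cell cycle covariates, a linear trend and leaving out each array.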

Additional observations from a re-analysis of the deposited data

How the results depend on the processing

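No paired analysis was possible because the numbers given to the arrays only order the times and pair no samples across the windows. No gene passed in limma with another pseudocount, filter or scaling, with all 8 arrays, an intensity trend, the mean of probe sets, the S phase covariate or the linear trend. With array weights 3050 passed and with the G2 and M phase covariate 156. When 1 array was left out the count was 0 to 1687, the highest without 240 min. Genes lower late at an unadjusted p under 0.05 numbered 335 to 1346 with 1 array left out, 1701 with array weights, 385 with the S phase covariate and 112 with the linear trend. Genes higher late numbered 552 to 1747, 2457, 675 and 187 in the same settings. Non-overlapping genes, with 1 array left out, numbered 981 to 2051 lower and 1484 to 2694 higher, and the classes 561 to 1103 (first-hour high), 837 to 1513 (first-hour low), 253 to 1191 (late high) and 203 to 602 (late low). These counts rise in part because fewer arrays must be separated. Leaving out the dimmest 50% of probe sets left 98 late low genes, from fewer genes. Signs turned only for genes near 0 among those named: Egr1 lay between -0.21 and 0.26 when 1 array was left out (below 0 without 40, 60, 180 or 240 min), and Krt14 lay between -0.0216 and 0.00127, at 0.00844 after quantile normalization and at 0.00349 with the S phase covariate. With 3 single times in each window, a difference confined to 1 time cannot be told apart from the spread of that array.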

Other observations

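Genes of oxidative defence under NRF2, of sterol synthesis and of heat shock showed smaller splits. Of 15 NRF2 targets 10 were higher late, and 3 of these had an unadjusted limma p under 0.05 (20% of the list, against 12.1% of all genes). Srxn1, which reduces oxidised peroxiredoxins, was at 0.22 ± 0.06 (SE) and Gsta4, a glutathione transferase, at 0.32 ± 0.09. Of 22 sterol synthesis genes 12 were higher, and 6 belonged to the first-hour low class, which held 8.3% of all genes. Scap, the escort of the sterol-sensing transcription factors, was at 0.25 ± 0.06, and Ebp, a sterol isomerase that binds tamoxifen, at 0.17 ± 0.05. The median of the sterol list, 0.05, turned to -0.04 without the 240 min array. Of 18 heat shock genes 9 were lower and 9 higher, with Hspa1b at 0.20 ± 0.05 and Hspd1, the mitochondrial chaperonin, at -0.19 ± 0.05.

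Respiratory chain and ribosomal protein genes lay near the level of all genes. Of 23 of the former 16 were higher late with a median of 0.04, while Uqcrc2, a subunit of complex III, was at -0.24 ± 0.07 (SE) and first-hour high. Of 17 ribosomal protein genes 13 were lower with a median of -0.00889, and none had an unadjusted limma p under 0.05. The xenobiotic gene Cyp2b10 was at 7.11, 7.04 and 7.04 in the first hour and 7.44, 7.44 and 7.25 late, with 7.26 and 7.38 untreated, 0.31 ± 0.06.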
